A study of Mus musculus with 2 samples.

Results

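MicroRNA genes with a Sox4 peak near their annotated start are described here. Gene symbols that the deposited peak list gives for each peak were split, and those beginning with Mir and a digit, or with Mirlet7, were kept where a peak edge lay within 5 kb of the start. The rule found 89 of the 11207 gene symbols in the list. Of these, 87 are microRNA (miRNA) genes and 2, Mir17hg and Mir22hg, are host transcripts, which were counted apart. The 87 genes had 85 peaks of 8730, in 105 pairs of a gene and a peak, and peaks that were listed for more than 1 gene joined them into 71 loci.

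The material was 1 pull-down library of tagged Sox4 (bioChIP) and 1 library of input chromatin, both from C57BL/6 mouse progenitor B cells grown out of embryonic fetal liver. All cells carried retroviral BirA, a bacterial biotin ligase, the p190 Bcr-Abl oncogene that immortalized them, SE-Cre, and Sox4 with a BAP tag, which BirA biotinylates, and were sorted after each of these transductions. Chromatin was captured on streptavidin beads, although SOX4 is entered as the ChIP antibody. The Sox4 came from a retrovirus, so its level need not be that of untransduced cells, and all cells carried Bcr-Abl. The list covers the bioChIP library only, and a table for the input library was not used here. With 1 library nothing has a replicate check and no test was made. A pull-down without tagged Sox4 was not analysed here, so a peak alone does not show that Sox4 was bound there.

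A miRNA gene is transcribed as a long primary transcript, from which the Microprocessor, a complex of Drosha and Dgcr8, cuts a hairpin that Dicer trims to the mature strand. The mature strand pairs with target mRNAs mainly through its seed, and miRNAs with the same seed share many targets. The annotated start of a miRNA gene is the 5′ end of its hairpin and not the start of transcription. Many hairpins lie in introns of protein-coding host genes and are made from the host's transcript. The transcription factor Sox4, with an HMG-box DNA-binding domain, is required for B-cell progenitors to form.

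Mature sequences were found in RefSeq (GRCm38.p6) for 78 of the miRNA genes. They gave 126 mature strands with 116 different seeds. Of these seeds, 6 were shared by more than 1 gene and 4 by genes at more than 1 locus. The strands with a shared seed are shown to set the genes and loci that share it side by side, and let-7i, miR-142 and miR-21 because their peaks are described below. Capitals mark the seed, bases 2 to 8 from the 5′ end.
miR-17-5p (chr14:115043684-115043706, plus strand): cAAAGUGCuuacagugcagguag
miR-20a-5p (chr14:115044183-115044205, plus strand): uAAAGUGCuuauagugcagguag
miR-106b-5p (chr5:138165787-138165807, minus strand): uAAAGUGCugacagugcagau
miR-93-5p (chr5:138165574-138165596, minus strand): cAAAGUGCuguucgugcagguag
miR-92a-3p (chr14:115044476-115044496, plus strand): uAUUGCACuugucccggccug
miR-25-3p (chr5:138165332-138165353, minus strand): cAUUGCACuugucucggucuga
miR-19a-3p (chr14:115044048-115044070, plus strand): uGUGCAAAucuaugcaaaacuga
miR-19b-3p (chr14:115044358-115044380, plus strand): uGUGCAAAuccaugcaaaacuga
miR-15b-5p (chr3:69009775-69009796, plus strand): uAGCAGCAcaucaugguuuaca
miR-16-5p (chr3:69009918-69009939, plus strand): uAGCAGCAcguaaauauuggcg
miR-195a-5p (chr11:70235062-70235082, plus strand): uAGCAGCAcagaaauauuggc
miR-497a-5p (chr11:70234730-70234751, plus strand): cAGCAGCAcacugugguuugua
miR-181c-5p (chr8:84178924-84178945, minus strand): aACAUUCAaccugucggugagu
miR-181d-5p (chr8:84178759-84178781, minus strand): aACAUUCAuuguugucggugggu
miR-2861 (chr2:32712819-32712837, minus strand): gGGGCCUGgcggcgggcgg
miR-3091-3p (chr2:180257580-180257601, plus strand): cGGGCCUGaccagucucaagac
let-7i-5p (chr10:122985698-122985719, minus strand): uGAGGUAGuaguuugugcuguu
miR-142a-5p (chr11:87756867-87756887, plus strand): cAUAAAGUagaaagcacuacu
miR-142a-3p (chr11:87756903-87756925, plus strand): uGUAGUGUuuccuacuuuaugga
miR-21a-5p (chr11:86584120-86584141, minus strand): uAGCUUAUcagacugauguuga
The seed AAAGUGC stood at the Mir17 cluster and at Mir106b and Mir93, and the seed AUUGCAC at Mir92-1 of the same cluster and at Mir25, which neighbours Mir93. The seed AGCAGCA stood at Mir15b and Mir16-2 and, at another locus, at Mir195 and Mir497. The fourth seed shared between loci, GGGCCUG, belonged to Mir2861 and Mir3091. The seeds GUGCAAA (Mir19a and Mir19b-1) and ACAUUCA (Mir181c and Mir181d) were each shared within 1 locus.

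Each peak has 3 deposited values, which are the authors' own and rank peaks within this list only. The tag number counts reads in the peak, the fold is a ratio over the background that the peak caller expected, and the score is taken here as a p-value on a minus 10 log10 scale. Peaks near miRNA genes had a median fold of 4.79 (quartiles 3.59 and 6.24), against 4.43 (quartiles 3.76 and 5.42) over all peaks. Their median score was 130.4, against 104.9 over all peaks, and their median tag number was 83, against 71. Folds of at least 10 occurred at 8 of the 85 peaks (9.41%, exact 95% interval 4.15 to 17.7%) and at 383 of all 8730 peaks (4.39%, 3.97 to 4.84%). Intervals in the text are exact binomial (Clopper-Pearson) for shares and exact Poisson for tags, and cover counting error only. The sources used here do not give the sequencing depth.

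**Figure D1:**
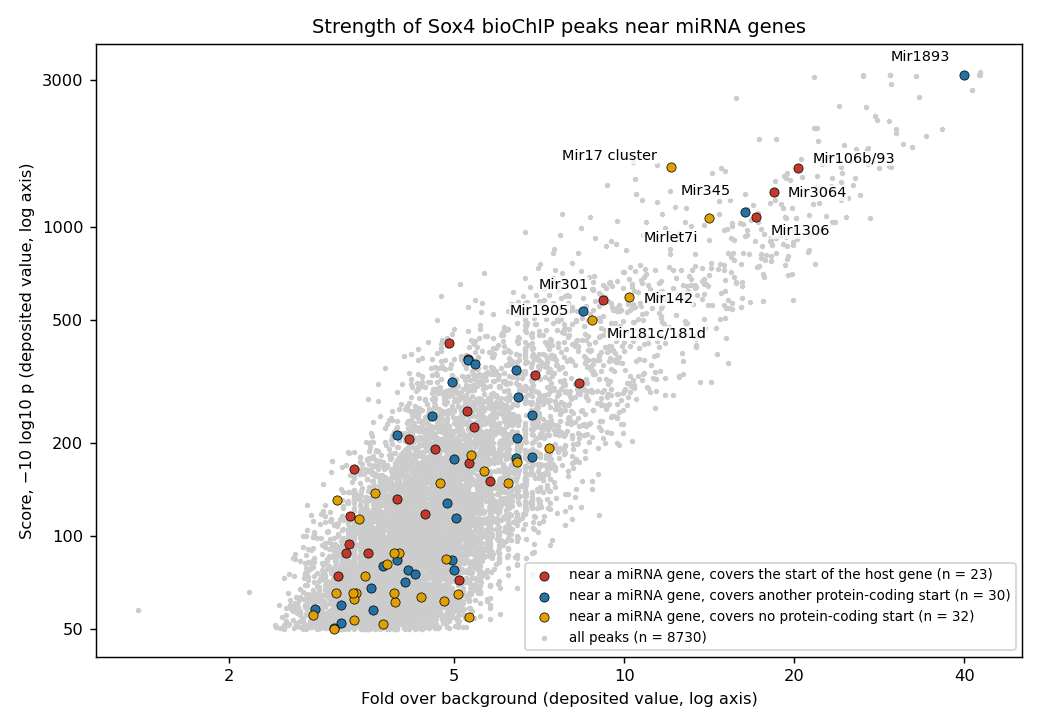
Deposited fold (x, log axis) against deposited score (y, log axis) of peaks near miRNA genes, by whether the peak covers the start of the host gene, another protein-coding start or none, over all 8730 peaks in grey. The peaks near miRNA genes run through the whole cloud, with folds between 2.81 and 40, and those of the Mir17 cluster and Mirlet7i are high without covering a protein-coding start.

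A first question was how many miRNA genes had a peak at all. Of the 87 genes, 85 matched the RefSeq gene table, which holds 1228 miRNA genes, so 6.92% had a peak within 5 kb. That table also holds miRNA genes with accessions later than any in the peak list. Among the 669 with an accession no later than the last one in the list, the share was 12.7% (10.3 to 15.5%). The same window held a peak for 32.8% of 20953 protein-coding genes and for 10.3% of 3313 long non-coding RNA genes. Neither of these 2 sets was limited by accession, so the miRNA share counted in the same way is 6.92% and not 12.7%. Of the miRNA genes inside a protein-coding gene, 51 of 395 had a peak (12.9%, 9.77 to 16.6%), and of those outside 34 of 274 (12.4%, 8.75 to 16.9%). By chromosome the share was highest on 10 (7 of 20, 35%), 11 (15 of 43, 34.9%) and 14 (9 of 26, 34.6%). It was lowest on chromosomes X (2 of 78, 2.56%), 1 (1 of 29, 3.45%), 13 (1 of 25, 4%), 12 (4 of 78, 5.13%) and 2 (5 of 92, 5.43%). On the other chromosomes it lay between 10% (chromosome 4, 3 of 30) and 25% (chromosome 18, 4 of 16), with 22.7% on chromosome 3, 21.4% on chromosome 17 and 21.1% on chromosome 5. Chromosomes 2, 12 and X carry large miRNA clusters. These miRNA genes are not independent, since clustered ones share peaks.

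The peak covered a protein-coding start for 55 of the 87 genes (63.2%, 52.2 to 73.3%). For 25 of them this was the start of the host gene, on the same strand as assigned, with the peak at or upstream of the hairpin's start. For 30 it was another protein-coding start. Mir1938 is counted among these 30, although its mature strand and its surrounding gene Ifrd1 are both on the minus strand. Mir707 is counted among the 25 by its peak, although the window of its host Akt1s1 searched below lies downstream of its mature strand. For the other 32 genes (36.8%, 26.7 to 47.8%) no peak within 5 kb covered a protein-coding start. Counted over peaks, 53 of 85 peaks near miRNA genes covered one (62.4%), and 5454 of all 8730 peaks did (62.5%). Peaks over a host start had a median fold of 5.11 and a median of 121 tags (n = 23), those over another start 4.95 and 84.5 tags (n = 30), and those over none 3.97 and 60 tags (n = 32). Over all peaks the medians were 4.50 and 80 tags where a protein-coding start was covered (n = 5454) and 4.31 and 59 tags where none was (n = 3276).

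The nearest peak overlapped the hairpin's start for 22 of the 87 genes, lay upstream of it for 42 and downstream for 23. Outside the start, it was within 1 kb for 25 genes, between 1 and 2 kb away for 12 and between 2 and 5 kb away for 28. Counting each peak once, by its nearest miRNA gene, 19 peaks overlapped the start with a median fold of 5.28. The median was 4.79 for the 41 upstream peaks and 3.92 for the 25 downstream peaks. Of the 8 peaks with a fold of 10 or more, 6 were upstream, 2 overlapped the start and 0 were downstream, where the highest fold was 8.47.

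**Figure D2:**
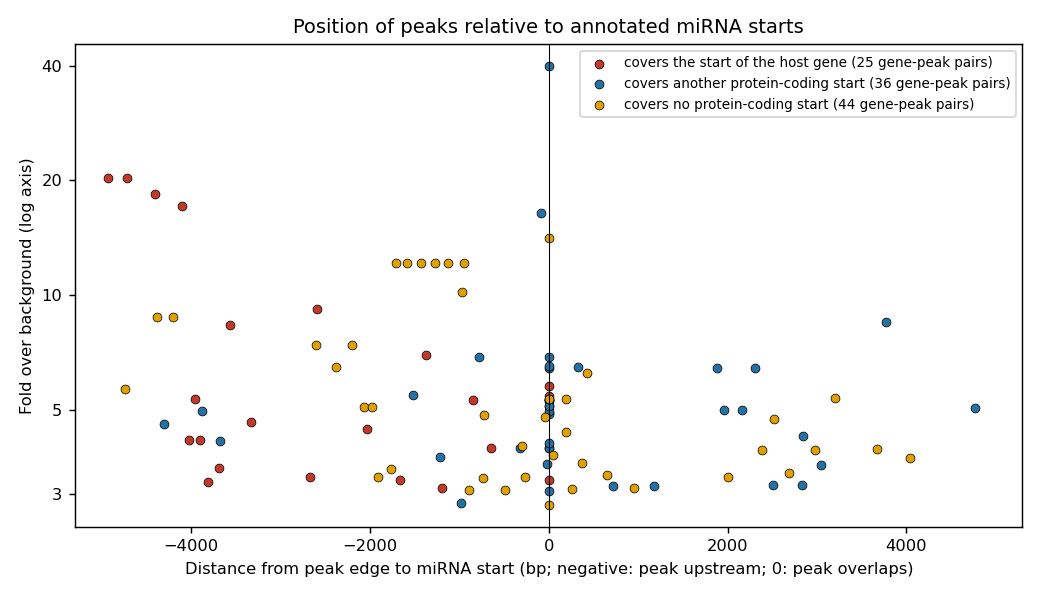
Distance in bp from the peak edge to the annotated miRNA start (x, negative where the peak is upstream along the gene's strand, 0 where it overlaps) against deposited fold (y, log axis) for 105 gene-peak pairs, by the start the peak covers. Pairs with a fold of 10 or more are at 0 or to the left of it, and the row of points at a fold of 12.12 is the 6 genes of the Mir17 cluster at 1 peak.

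Among the peaks near miRNA genes without a protein-coding start, that of the Mir17 cluster had the most tags and the highest score. The cluster, also called miR-17-92, promotes survival of B-cell progenitors and is oncogenic when overexpressed. Its 6 genes, Mir17, Mir18, Mir19a, Mir20a, Mir19b-1 and Mir92-1, were listed for a single peak at chr14:115439313-115441944 (mm9). This peak was 2631 bp wide and held 403 tags (365 to 444), with 12.12-fold enrichment and a score of 1563. Its score ranked 51 of 8730 and its fold 260. The peak's edge lay 949 bp upstream of Mir17 and 1705 bp upstream of Mir92-1, and its summit was 2124 bp upstream of Mir17. The listed start of the host transcript Mir17hg was 1668 bp beyond this edge, so the peak overlapped no annotated start.

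The related cluster of Mir106b, Mir93 and Mir25, whose seeds recur in the Mir17 cluster, lies in an intron of Mcm7, a subunit of the replicative DNA helicase. A peak over the shared start region of Mcm7 and Ap4m1, at chr5:138611768-138613770 (mm9), held 381 tags (344 to 421). Its fold was 20.34 and its score 1557. Its edge was 4723 bp upstream of Mir106b and 4931 bp upstream of Mir93. Mir25 lay 5137 bp from it, just outside the 5 kb limit. A small peak lay over the hairpins themselves, at chr5:138606236-138606848 (mm9), with 36 tags (25.2 to 49.8), a score of 54.67 and a fold of 5.32, and overlapped the starts of Mir25 and Mir93. Its score was near the list's lowest of 50.03. Mir25 is therefore counted only through the small peak, while Mir106b and Mir93 are counted through both.

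Mirlet7i was the only gene with a fold of 10 or more whose peak both overlapped the hairpin's start and covered no protein-coding start. The let-7 family is best known for restraining growth regulators and for its antagonism with Lin28, which blocks its maturation in fetal blood cells. The peak at chr10:122422126-122423872 (mm9) held 253 tags (223 to 286), and its score was 1067 and its fold 14.10. Mirlet7a-1 and Mirlet7g, other members of the family, had their nearest peaks at 7104 and 6613 bp upstream, with folds of 4.62 and 4.10, and are outside the limit.

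Mir142, a miRNA expressed throughout the blood lineages, had 2 peaks within the limit and neither covered a protein-coding start. The nearer, at chr11:87567933-87569396 (mm9), ended 970 bp upstream and held 193 tags (167 to 222) with a fold of 10.19. The farther ended 4741 bp upstream and held 84 tags (67.0 to 104) with a fold of 5.65. Beyond the limit, 2 smaller peaks followed at 6807 and 7795 bp upstream, with folds of 4.96 and 4.12. The summits of the nearer pair lay 1995 and 5094 bp upstream of the hairpin.

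Mir181c and Mir181d, of the family whose member miR-181a acts in lymphocyte development, shared a peak of 171 tags (146 to 199) and a fold of 8.77 at 4206 and 4380 bp upstream. Mir181c and Mir181d are not on the blood list used below. The 4 Mir181 genes that are on it, Mir181a-1, Mir181a-2, Mir181b-1 and Mir181b-2, had no peak listed within 25 kb. Mir21, a growth-promoting miRNA in the last part of the Vmp1 gene that has its own promoter, had a peak of 75 tags (59.0 to 94.0) and a fold of 6.47 at 2376 bp upstream, inside Vmp1. Mir200c and Mir141, best known as epithelial miRNAs, shared a peak of 97 tags (78.7 to 118) and a fold of 7.37 at 2200 and 2605 bp upstream, and a weaker one of 33 tags (22.7 to 46.3) at 492 and 897 bp. Mir22 and Mir1949 each had a peak over the start of a non-coding host, Mir22hg and Snhg4, with folds of 3.48 and 4.83.

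The other peaks within 1 kb that covered no protein-coding start had folds between 2.81 and 6.24. Mir210, the hypoxia-induced miRNA, had a peak 40 bp upstream with 45 tags (32.8 to 60.2) and a fold of 4.79. Mir193 (3.33), Mir760 (3.81), Mir1900 (3.36), Mir1901 (3.09), Mir1904 (4.0), Mir1907 (4.37), Mir1941 (2.81), Mir1956 (3.62) and Mir3087 (3.31) had folds below the median of all peaks. Mir1894, with a peak 429 bp downstream, reached 6.24, and Mir26b, with one 952 bp downstream, had 3.11. For Mir1894 and Mir26b another peak covered the start of the host gene. The 6 other genes without a covered start, Mir145, Mir338, Mir1190, Mir3057, Mir3065 and Mir5104, had peaks between 1911 bp (Mir3065) and 3668 bp (Mir145) away, with folds from 3.33 (Mir338 and Mir3065) to 5.36 (Mir1190). Of the 32 genes without a covered start, 8 lay inside a protein-coding gene on the same strand, as far as strands were assigned. Mir1190, Mir1901 and Mir1907 lay inside Ccdc88c, Cables1 and Trps1 with a relative strand that was not assigned, and are not among these 8.

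**Figure D3:**
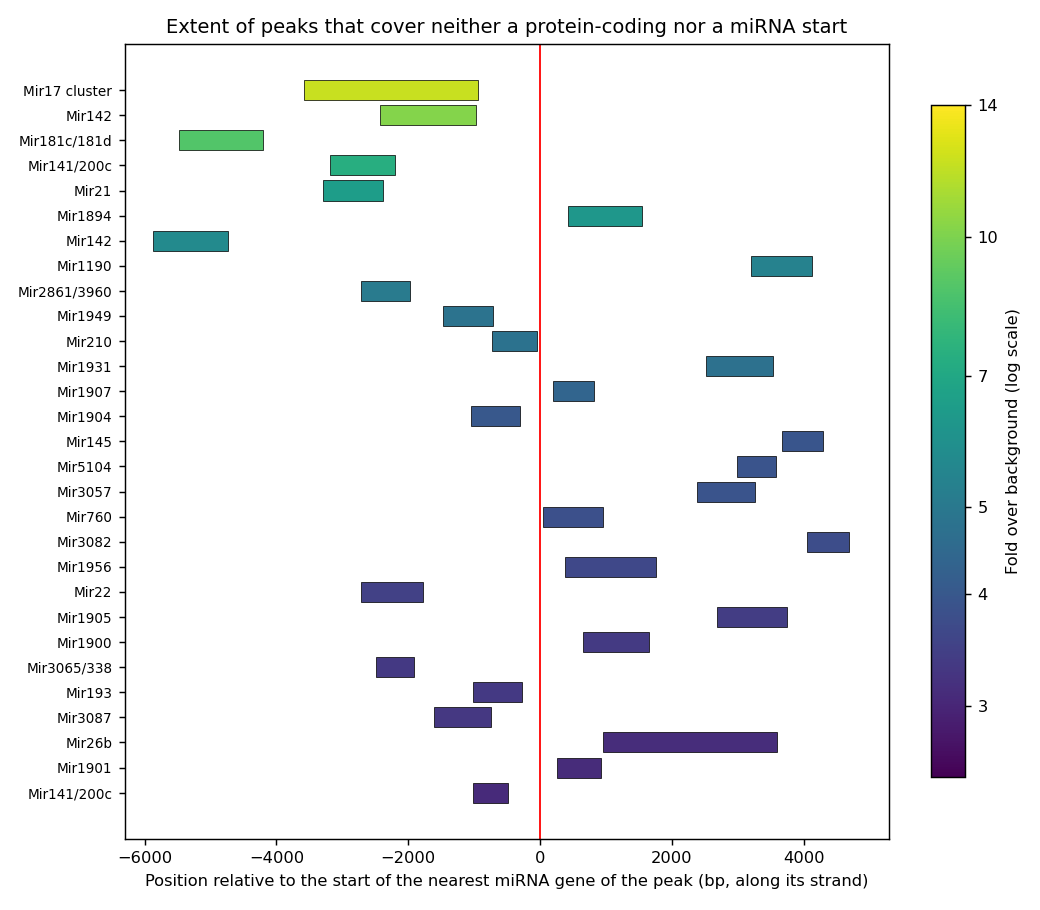
Extent of the peaks that cover neither a protein-coding nor a miRNA start, in bp from the start of the nearest miRNA gene (x, along its strand, red line at 0), ordered and coloured by deposited fold (log colour scale). The highest 5 rows, from the Mir17 cluster to Mir21, all lie upstream, while rows with lower folds lie on both sides.

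Of the peaks over the start of a host gene, those at Mcm7, Ddx5 and Dgcr8 had the highest folds. Mir3064 lies in Ddx5, an RNA helicase that associates with the Microprocessor. The peak over the starts of Ddx5 and Cep95 held 381 tags (344 to 421) with a fold of 18.38, at 4408 bp upstream of the hairpin, and another peak over the start of Polg2 lay 2848 bp downstream with a fold of 4.27. Mir1306 lies in Dgcr8, the RNA-binding partner of Drosha. The peak over the start of Dgcr8, at chr16:18288512-18289699 (mm9), held 253 tags (223 to 286) with a fold of 17.14. Mir301 lies in Ska2, a kinetochore protein gene, and its peak over the starts of Ska2 and Prr11 held 222 tags (194 to 253) with a fold of 9.17. Mir702 in Plod3 had a fold of 8.33 and Mir5121 in Rpl13a, a ribosomal protein gene, 6.96. The other host-start genes outside the lists below had folds between 3.12 (Mir677, in Atp5b) and 5.78 (Mir3091, in Rps21).

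Most miRNA genes whose surrounding gene had a covered start were not in the set. Of the 395 miRNA genes inside a protein-coding gene, on either strand, 126 had a peak over the start of that gene. Of these 126, 38 also had a peak within 5 kb of the hairpin and 88 did not. The start was covered for 111 of the 286 protein-coding genes that contain a miRNA gene (38.8%, 33.1 to 44.7%), against 28.4% of all protein-coding genes.

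Peaks over another protein-coding start included the strongest near any miRNA gene. Mir1893, on chromosome 18, lay under a peak of 652 tags (603 to 704) with a score of 3100 and a fold of 40, which covered the start of Epc1, a subunit of a histone acetyltransferase complex. Mir1893 lies inside Epc1, but its strand could not be assigned, so it was not counted with the host starts. Mir1938 in Ifrd1 (4.86) was left out of the host starts too, because its strand was not assigned when genes were classed. Its mature strand and the Ifrd1 window are both on the minus strand, so by strand it would belong with them. Mir345 lay 92 bp from a peak of 264 tags (233 to 298) and a fold of 16.38 over the start of Slc25a29, and Mir1905 lay 3777 bp from a peak with a fold of 8.47 over the start of Mex3a. Mir195 and Mir497, which share their seed with Mir15b, were reached by a peak of 53 tags (39.7 to 69.3) and a fold of 3.16 that lay downstream. Elsewhere, Mir146b, a relative of the inflammation-linked miR-146a, had a peak of 59 tags and a fold of 4.14 over the start of Cuedc2 at 3679 bp upstream. Mir484 and Mir320 had peaks at 0 and 24 bp with folds of 3.96 and 3.59. The further genes of this kind outside the lists had folds between 2.84 (Mir3069, at Glrx5) and 6.88 (Mir1967, at Taf5l).

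The miRNAs with known roles in blood cells were set beside those of other tissues. Within 5 kb, 17 of 41 genes on the blood and B-lineage list had a peak (41.5%, 26.3 to 57.9%), against 12.7% of the 669 miRNA genes. They sat at 11 peaks and 8 loci, so 6 of the 17 come from the Mir17 cluster alone. Beside the clusters of Mir17 and Mir106b, Mir142 and Mir21, they were Mir150, Mir15b, Mir16-2, Mir191, Mir425 and Mir126. Mir150, which represses Myb in lymphocytes, had a peak of 92 tags (74.2 to 113) and a fold of 6.43, which lay 2308 bp downstream. Mir15b and Mir16-2, which repress Bcl2 and cyclins, shared a peak of 121 tags (100 to 145) and a fold of 4.17 over the starts of Smc4 and Ift80. Mir191 and Mir425 shared a peak of 168 tags (144 to 195) and a fold of 3.97 over the start of Ndufaf3. Another, of 50 tags, covered a start of Dalrd3, their host on the same strand. It lay 1181 and 723 bp downstream of the 2 genes, so they were not counted with the host starts. Mir126, known from endothelium and blood stem cells, had a peak of 77 tags (60.8 to 96.2) and a fold of 3.22 over the start of its host Egfl7. The folds of the last 3 loci were thus below the median of all peaks, 4.43.

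**Figure D4:**
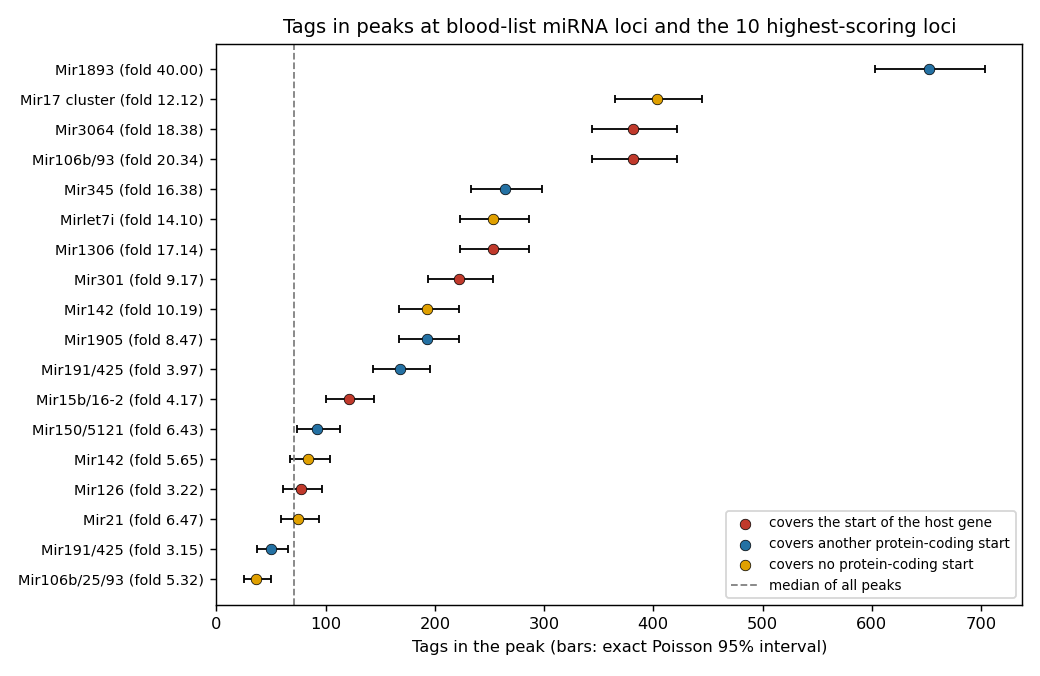
Tags (x, bars are exact Poisson 95% intervals) of peaks at the blood-list loci and at the 10 highest-scoring loci, with the deposited fold in each name, coloured by the start that the peak covers. The Mir17 cluster, Mir106b/93 and Mir142 have more than 190 tags at a peak. The intervals of Mir126, Mir21 and the farther Mir142 peak (84 tags) span the median of all peaks, 71 tags (dashed line). Those of the weaker peak at Mir191 and Mir425 (50 tags) and of the small peak over Mir25 and Mir93 (36 tags) lie below it.

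A further 10 genes on the blood list had peaks only between 5 and 25 kb. They were Mir144, Mir146, Mir155, Mir15a, Mir16-1, Mir23a, Mir24-2, Mir27a, Mir34a and Mir451. The remaining 14, among them Mir223 of the myeloid lineage, Mir221, Mir222, the 4 genes of the Mir29 family and both Mir128 genes, had no peak listed within 25 kb. On the neural list 2 of 13 genes had a peak, Mir132 (fold 5.05, at 4768 bp) and Mir219-1 (3.06, at 2 bp). Mir212 and Mir219-2 had peaks only between 5 and 25 kb. No gene of the liver list (0 of 5, up to 52.2%) or the muscle list (0 of 9, up to 33.6%) had one within 5 kb. Between 5 and 25 kb, the liver list had 3 genes with peaks, Mir192, Mir194-1 and Mir194-2, and the muscle list 0. Within 25 kb this makes 27 of 41 blood, 4 of 13 neural, 3 of 5 liver and 0 of 9 muscle genes. The share of all miRNA genes was not computed at 25 kb. Of the 1228 RefSeq miRNA genes, 15.6% had a peak within 20 kb, against 6.92% within 5 kb. The imprinted Dlk1-Dio3 region (0 of 30, up to 11.6%) and the Sfmbt2 intron cluster (0 of 11, up to 28.5%) also had no peak within 5 kb. Each of them is 1 region and not a set of independent genes.

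**Figure D5:**
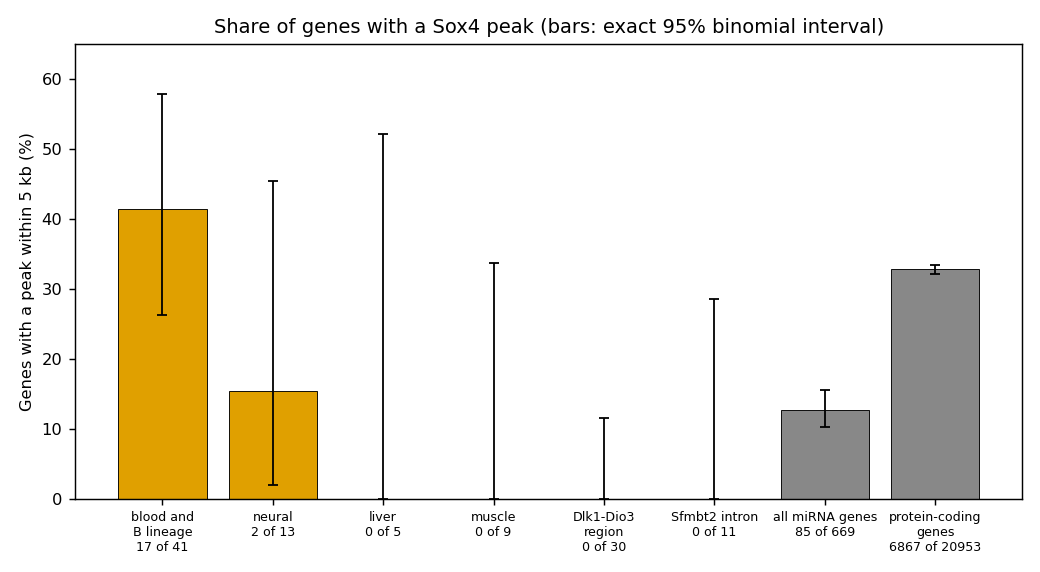
Share of genes with a Sox4 peak within 5 kb of the annotated start (y, %) for each miRNA list, for the 669 miRNA genes and for protein-coding genes, with exact binomial 95% intervals. The blood and B-lineage list stands at 41.5%, above the 12.7% of the 669 miRNA genes, and 4 lists stand at 0. The 669 miRNA genes were limited by accession and the protein-coding genes were not.

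Around the 5 kb limit, the last pairs inside were Mir93 at 4931 bp, Mir132 at 4768 bp and Mir142 at 4741 bp. For Mir93 and Mir142 this was the farther of their peaks, and of these genes Mir132 alone depended on the limit. The first outside were Mir143 (5032 bp, fold 3.93) and Mir212 (5062 bp, fold 5.05, the peak of Mir132). Mir143 and Mir145 form a cluster, as do Mir132 and Mir212, so in both clusters the limit fell between neighbours.

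The promoters of host genes were searched for 2 short words that HMG-box factors of the SOX family can bind, AACAAAG and AACAATG, on both strands, in windows from 250 bases before to 50 after each RefSeq start (GRCm38.p6). A word was found in 2 of 31 windows, from 21 host genes with a covered start (6.45%, 0.791 to 21.4%), at Ddhd1 and Ppp1r10. These hosts include Dalrd3, which was not counted with the host starts above. No window of Smc4, Cdk17 or Rnf215, which were counted, was among them. The Ppp1r10 word was in the window of a later start, downstream of Mir1894, and not in that of its first start. Among the other covered genes, 28 in number, 0 of 31 windows held one (up to 11.2%). A word was in 5.93% of windows of all protein-coding genes with a covered start and in 9.36% of all 32851 windows. Windows of 1 gene can overlap, so they are not independent, although the intervals treat them so. The windows of Dgcr8 and Mcm7 are shown as those of hosts described above, without a match, and that of Ddhd1, the host of Mir5131 (fold 5.42), as a match, in capitals. The peaks are in mm9, so where a summit falls in a window was not determined, and a word is a match of letters and not a binding site.
Dgcr8 (chr16:18289119-18289418, minus strand): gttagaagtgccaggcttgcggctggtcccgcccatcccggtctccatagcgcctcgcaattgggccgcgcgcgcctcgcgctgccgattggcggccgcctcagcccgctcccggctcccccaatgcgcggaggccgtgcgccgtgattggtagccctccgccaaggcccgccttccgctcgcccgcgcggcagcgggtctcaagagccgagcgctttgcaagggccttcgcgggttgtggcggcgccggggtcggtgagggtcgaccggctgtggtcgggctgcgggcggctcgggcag
Mcm7 (chr5:138171834-138172133, minus strand): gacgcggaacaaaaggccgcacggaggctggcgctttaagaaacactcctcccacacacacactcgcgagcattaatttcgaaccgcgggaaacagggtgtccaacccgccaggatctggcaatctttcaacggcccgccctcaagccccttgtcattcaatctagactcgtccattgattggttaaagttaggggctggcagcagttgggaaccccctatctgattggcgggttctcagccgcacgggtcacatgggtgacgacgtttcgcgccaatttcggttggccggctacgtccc
Ddhd1 (chr14:45658094-45658393, minus strand): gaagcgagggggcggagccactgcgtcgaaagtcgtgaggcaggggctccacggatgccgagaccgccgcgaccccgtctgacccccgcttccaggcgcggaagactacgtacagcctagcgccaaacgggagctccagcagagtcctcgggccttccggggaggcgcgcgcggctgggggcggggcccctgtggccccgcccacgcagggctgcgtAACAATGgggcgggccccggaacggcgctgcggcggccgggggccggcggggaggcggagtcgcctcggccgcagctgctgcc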

How the data were processed

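Reads were aligned and peaks called by the authors; the submitters' processing notes name Bowtie 0.12.8, MACS 1.4.2 and mm9. The control library of the calling and the tool that annotated the peaks are not given in the sources used here. Tags per peak are deposited as raw counts. The fold is, as deposited, a ratio to the caller's background. The deposited score, with a minimum of 50.03, was read as minus 10 log10 of a p-value. Deposited distances run from the peak edge, with 0 for overlap.

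Genes were matched by accession to RefSeq (GRCm38.p6) for class, containment and sequence. Sequences from chromosome 18 were left out. Strand came from the RefSeq tables or, where a transcript had several peaks, from deposited distances that put its start at 1 place within 2 bp. Where both sources gave a strand, they matched for 2526 of 2528 genes. Where a strand was still missing, a peak over the surrounding gene's start decided. The miRNA was called same-strand if that peak lay upstream of it, as for Mir1931 in Cdk17. Such host-start calls therefore rest on the peak itself. Python 3.11.15, pandas 2.3.3 and SciPy 1.17.1 were used, and the procedure was tested on simulated data. Named genes were the 10 highest by fold and by score, all within 1 kb without a covered protein-coding start, list members, and those beside the 5 kb limit; others named were chosen after their values were seen, and some results are not reported here. The members, lists and rules were chosen with earlier results of these data known.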

Additional observations from a re-analysis of the deposited data

How the results depend on the processing

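The counts moved with the distance allowed and the peaks used. Within 5 kb there were 87 genes, 55 genes with a covered protein-coding start, and 85 peaks. A 1 kb limit gave 47, 27 and 43, a 10 kb limit 141, 94 and 150, and a 20 kb limit 196, 132 and 241. Peaks with scores above the median gave 54 genes, 39 with a covered start, and 48 peaks, with a median fold of 5.55 and score of 218.3. A fold of 10 or more gave 14 genes, 6 of them with a covered start, and 8 peaks, with a median fold of 16.76 and score of 1211. Taking only the closest gene of each peak gave 40 genes, 16 with a covered start, and 42 peaks. The share of RefSeq miRNA genes, 6.92%, became 3.83% at 1 kb, 15.6% at 20 kb, 4.23% above the median score and 1.14% at a fold of 10. For protein-coding genes 32.8% became 30.2%, 41.8%, 18.9% and 1.47%. The restriction to accessions in range, 12.7%, was chosen after seeing the data. All other counts computed stayed within 1.5 times the one reported. All other medians stayed within the 95% interval of the median fold (4 to 5.11) or score (87.86 to 177.9), with the lowest median score, 97.07, at 20 kb. No paired analysis was possible because there is 1 library per group. With no replicate, no value here has an error beyond counting.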

Other observations

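Beyond 5 kb, 20 further miRNA genes were the closest gene of 24 peaks. The highest fold among them was 9.94, at 14759 bp from Mir704. Mir34a, a target of p53, had a peak 7898 bp upstream with 96 tags and a fold of 7.57. Mir15a had one 15800 bp upstream with a fold of 4.89. Mir23a had 2 such peaks, 7298 and 9696 bp upstream, with folds of 4.85 and 4.16. The list names 211 miRNA symbols within 25 kb in all.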
